A study of Mus musculus with 9 samples.

Results

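The 8 genes described here, Kcnq1, Kcnj10, Atp1b2, Slc12a2, Slc26a4, Dct, Met and Cldn11, are best known in the inner ear from the stria vascularis and the epithelium next to it. They were chosen by name and not by a rule on measured values, though earlier results of these data were known. They were found by gene identifier among 51912 genes in the RNA-seq data of mouse cochleae at postnatal day 3. There were 9 libraries in 3 groups of 3: Pou4f3(Δ/Δ), called HOM here, Pou4f3(Δ/+), called HET, and Pou4f3(+/+), called WT. Δ stands for the mutant allele of Pou4f3, a transcription factor gene of hair cells. The labels do not describe the extent of Δ, the strain, the sex or how many animals went into a library, so p-values measure the spread between libraries, which may be technical. The groups follow the sample titles, because the genotype field of every sample names another genotype than its title, and each direction below rests on that choice. All 8 genes were measured in the HET and WT libraries. The HOM libraries list 1137 genes, and of the 8 only Atp1b2 was among them (1 of 8), whereas 7.35% of the 15391 genes tested in HET against WT were listed. The other 7 genes were not analysed in HOM.

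The stria vascularis is the epithelium of the cochlear lateral wall that secretes potassium into the endolymph and holds the endocochlear potential. Marginal cells take up potassium through the sodium pump and the cotransporter encoded by Slc12a2, and release it into the endolymph through the channel formed by Kcnq1 and Kcne1. Intermediate cells, which are melanocytes, carry the potassium channel Kcnj10 and pigment enzymes such as Dct, and basal cells seal the layer with tight junctions of claudin 11, encoded by Cldn11. Loss of Kcnq1, Kcnj10, Slc12a2, Slc26a4 or Cldn11 impairs hearing in mice. None of the 8 genes is unique to the stria, since supporting cells, glia, fibrocytes and other epithelia also transcribe several of them.

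Library depth, recovered from the spacing of low values, ran from 1.43e+07 to 1.74e+07 fragments. Pou4f3 was at 5.92, 1.36 and 9.39 FPKM (fragments scaled by gene length and by library total) in HOM replicates 1 to 3, against 21.74 to 25.56 in HET and 24.49 to 26.97 in WT. The replicate 1 library of HET (HET 1) and the replicate 3 library of WT (WT 3) stood apart from the other 4 of their kind. Genes in the shortest quartile by exon length (up to 2082 bp) were higher there, by a median of 0.16 in HET 1 and 0.12 in WT 3 relative to the mean of the 6 libraries on the log2(FPKM + 1) scale. Genes in the longest quartile (over 6335 bp) were lower there, with medians of -0.14 in HET 1 and -0.09 in WT 3. Summed Schwann and satellite glia markers were also highest in these libraries, at 481 FPKM in HET 1 and 434 in WT 3, against 206 to 332 in the other 4.

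Dct stood out among the 8 genes by a 5.6-fold excess in its highest library over the next HET or WT library. The letters upstream of it are shown here beside those of Tyr, another pigment enzyme gene, 6.69-fold higher in that library. Those of Kcnj10 and Cldn11, which were only 1.03-fold and 1.17-fold above the next library there, are also shown. Mitf, the master regulator of melanocytes, is known to act through the M-box, a motif in promoters of pigment genes. The 250 bases before the start of each gene are given 5′ to 3′ on the gene's own strand, from RefSeq on GRCm38.p6, and capitals mark the M-box core TCATGTGCT, searched on both strands.
Dct: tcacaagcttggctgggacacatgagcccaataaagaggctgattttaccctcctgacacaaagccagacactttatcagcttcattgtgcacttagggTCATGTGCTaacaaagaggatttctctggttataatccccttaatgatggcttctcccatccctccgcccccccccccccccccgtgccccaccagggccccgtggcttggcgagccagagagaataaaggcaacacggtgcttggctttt
Tyr: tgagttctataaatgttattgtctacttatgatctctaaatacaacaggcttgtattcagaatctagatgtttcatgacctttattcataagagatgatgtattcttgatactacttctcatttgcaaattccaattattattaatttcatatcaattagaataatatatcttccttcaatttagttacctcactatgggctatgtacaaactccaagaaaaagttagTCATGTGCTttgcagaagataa
Kcnj10: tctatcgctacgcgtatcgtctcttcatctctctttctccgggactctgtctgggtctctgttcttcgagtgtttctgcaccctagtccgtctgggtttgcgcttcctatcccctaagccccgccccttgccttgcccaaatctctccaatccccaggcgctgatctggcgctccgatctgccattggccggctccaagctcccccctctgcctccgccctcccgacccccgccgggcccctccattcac
Cldn11: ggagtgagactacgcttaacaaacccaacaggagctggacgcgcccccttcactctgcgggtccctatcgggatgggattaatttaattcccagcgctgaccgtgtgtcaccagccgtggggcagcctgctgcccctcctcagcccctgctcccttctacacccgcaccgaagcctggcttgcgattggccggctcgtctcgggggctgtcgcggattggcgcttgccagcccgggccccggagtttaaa
The windows are chr14:118052247-118052496 on the - strand for Dct, chr7:87493513-87493762 on the - strand for Tyr, chr1:172340960-172341209 on the + strand for Kcnj10 and chr3:31149670-31149919 on the + strand for Cldn11. Dct and Tyr each held the core 1 time, with its first base 151 bases before the start of Dct and 22 before that of Tyr. The core was in 0.335% of 32851 promoter windows of the same length. The shorter CATGTG, also searched on both strands and lying within the core, occurred 2 times in Dct and 1 time in Tyr, and in 12.3% of all windows. Kcnj10 and Cldn11 held neither, nor did Slc26a4 and Met, nor did Gpnmb and Esrrb, whose RNA was also highest in the library that was highest for Dct. Such a match is a description of letters in a window and not evidence of binding. Tyrp1, a pigment enzyme gene without the excess of Dct, was not searched, nor were Pmel, Mlana and Trpm1. Of the 8 genes, Kcnq1, Atp1b2 and Slc12a2 had no such window to search, nor did Kcne1, Bsnd and Slc45a2.

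Dct encodes dopachrome tautomerase, an enzyme of melanin synthesis and a marker of melanocytes. The gene (ENSMUSG00000022129) lies on chromosome 14 from 118012790 to 118052244 on the - strand in GRCm38. Its level was 0.87, 2.24 and 1.93 FPKM in HET replicates 1 to 3, against 15.12, 2.70 and 0.32 in WT replicates 1 to 3. The replicate 1 library of WT (WT 1) was 5.6-fold above the highest of the other 5 libraries, and the WT libraries spanned a 47.3-fold range. These levels rest on 84, 230 and 177 recovered fragments in HET and on 1518, 232 and 29 in WT. The 95% Poisson interval, which covers counting error only, was 14.4 to 15.9 FPKM in WT 1 and 0.218 to 0.467 in WT 3, so the range within WT exceeds counting error. HET averaged 1.68 ± 0.718 FPKM and WT 6.05 ± 7.95 (mean ± SD, n = 3 each), and the groups overlapped. The difference of -0.72 (SE 0.85, limma adjusted p = 0.9998) was not called and became +0.24 without WT 1, so its direction was set by that library.

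**Figure D1:**
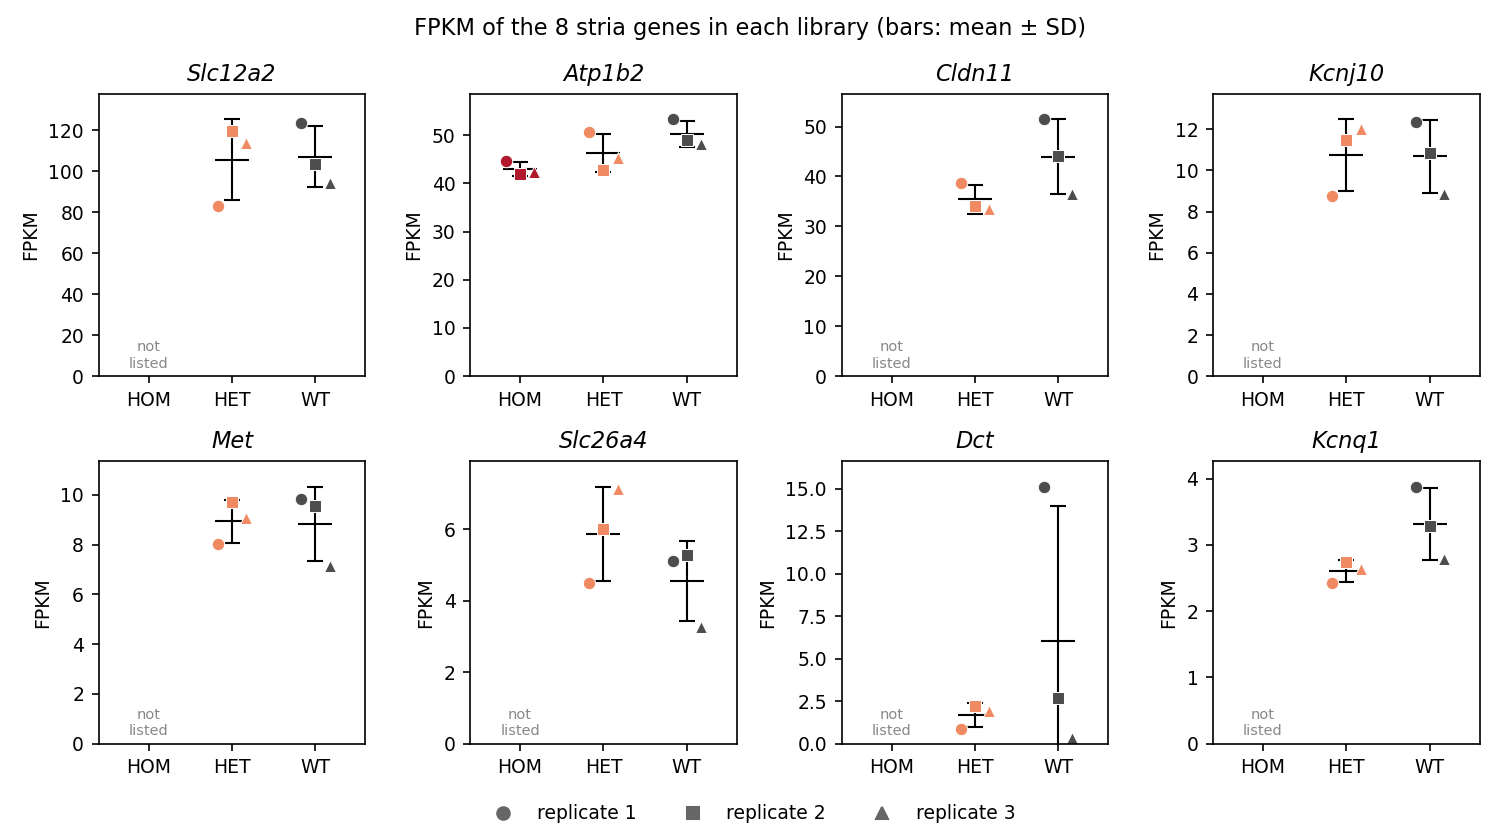
FPKM (y axis, from 0) of the 8 genes in each library of HOM, HET and WT (x axis), with 1 symbol per replicate and the mean ± SD as bars, cut at 0 for Dct. WT 1 lies at 15.12 FPKM for Dct against at most 2.70 in the other 5 libraries, and genes without HOM points were not listed there.

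The excess in WT 1 was shared by genes that mark marginal cells and melanocytes, taken from 4 lists of 35 further stria genes. Kcne1, the regulatory subunit of the Kcnq1 channel in marginal cells, was at 0.84, 0.68 and 0.74 FPKM in HET and at 5.39, 1.07 and 0.54 in WT. Bsnd, the gene of barttin, a membrane protein of marginal cells, was at 0.00, 0.08 and 0.07 FPKM in HET and at 1.71, 0.12 and 0.07 in WT. Esrrb, a nuclear receptor needed for marginal cell function in mice, was at 0.38, 0.42 and 0.65 FPKM in HET and at 3.10, 0.52 and 0.31 in WT. In each of the 3 genes WT 1 stood alone and the other 5 libraries lay close together.

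The pigment genes showed the same library. Tyr, tyrosinase, was at 0.04, 0.15 and 0.09 FPKM in HET and at 1.07, 0.16 and 0.00 in WT, on 129 fragments in WT 1 and at most 19 in any other library. Slc45a2, a transporter of the melanosome, was at 0.89 FPKM in WT 1 against 0.11 to 0.25 in the other 5 libraries. Gpnmb, another melanosome protein gene, was at 0.96 FPKM in WT 1 against 0.01 to 0.16. Trpm1, a cation channel gene of melanocytes, reached 0.25 FPKM in WT 1 and at most 0.05 elsewhere. Tyrp1, another pigment enzyme gene, did not share the excess, with 0.02 FPKM in WT 1 and its highest value of 0.18 in HET 2. Other genes of the melanocyte list, Kcnj13, Mitf, Kit, Pmel and Sox10, also lacked it: Mitf was at 2.95 FPKM in WT 1 against 2.64 to 2.91 in the others, and Sox10, which Schwann cells also transcribe, was at 123.6 against 91.9 to 142.5.

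Of the 35 list genes, 9 were at least 2-fold higher in WT 1 than in every other library, and none of these 9 was at 1 FPKM in enough libraries to be tested. The share over all genes at such low levels was not computed. Of the 22 list genes tested, 0 showed this excess of at least 2-fold in WT 1. Among the 8 genes this held for Dct alone (1 of 8), against 7 of 15391 genes tested (0.0455%). WT 1 was the highest of the 6 libraries for 7 of the 8 genes (87.5%), all but Slc26a4, against 9.80% of the genes tested. For the 6 besides Dct the margin was small, between 1.01-fold (Met) and 1.18-fold (Kcnq1) over the next library. Of the 22 list genes tested, 8 were highest in WT 1, as were 11 of the 13 not tested. Kcne1, Bsnd and Tyr, which define marginal cells and melanocytes, were thus at 1.07 FPKM or less in the other 5 libraries, while Slc12a2, Atp1b2 and Cldn11 were at 33.43 FPKM or more in all 6. The stria label of the 8 genes therefore rests on what they are known for, and in RNA of cochlear tissue their levels cannot be assigned to stria cells. Whether the amount of stria in each sample differed was not tested.

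**Figure D2:**
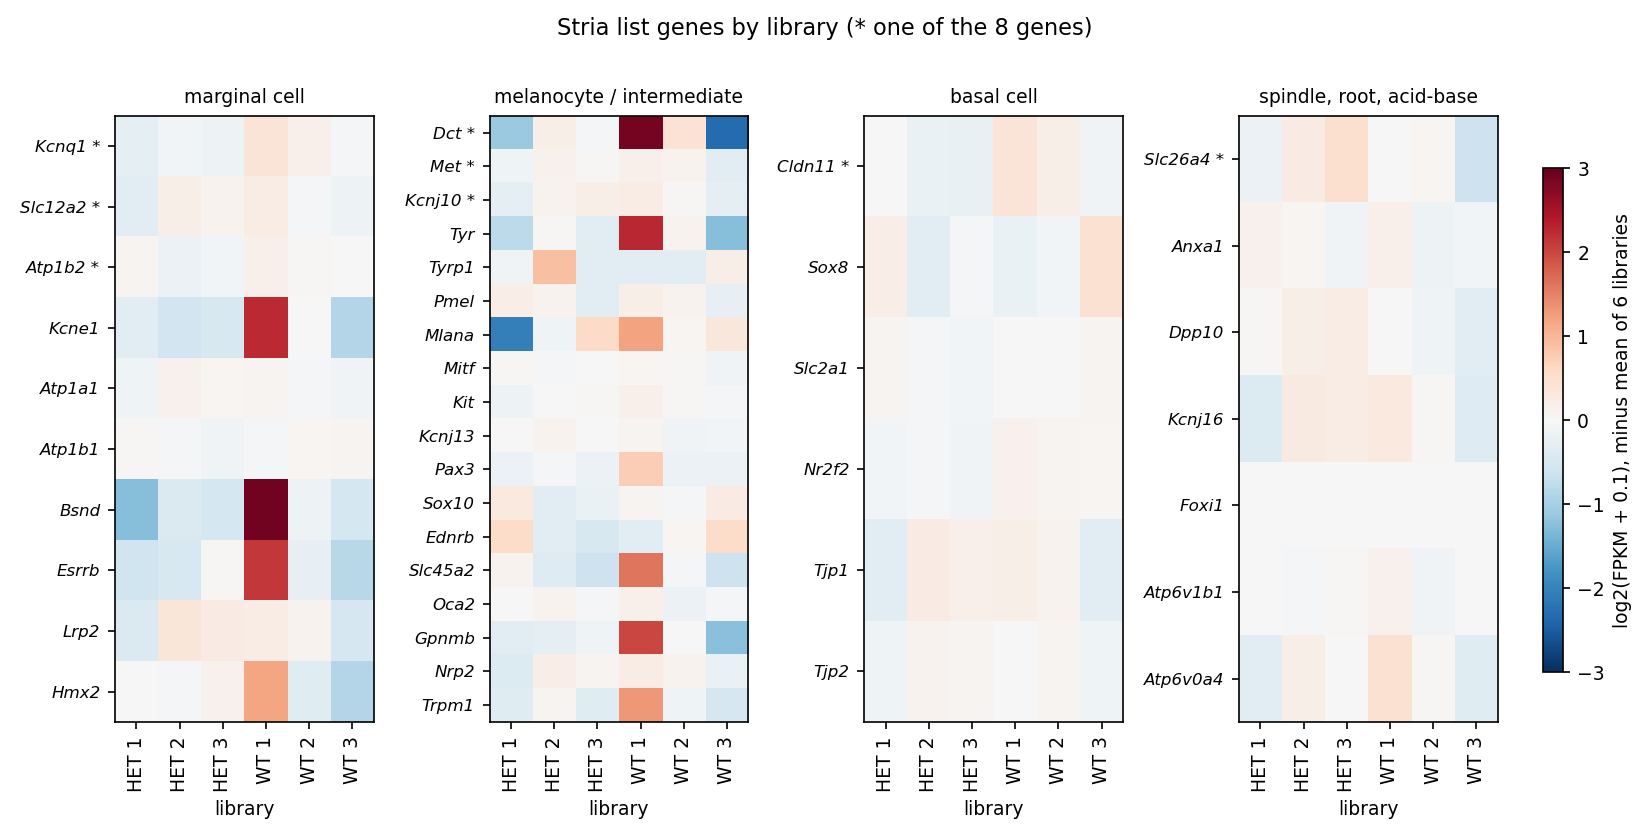
Log2(FPKM + 0.1) of each stria gene minus its mean over the 6 libraries (colour, -3 to 3), by library (columns, HET then WT) and gene (rows, in 4 lists, the 8 genes marked *, with some list genes not shown). WT 1 is high for Dct, Tyr, Kcne1, Bsnd, Esrrb, Slc45a2 and Gpnmb and near the other libraries for Slc12a2, Atp1b2, Kcnj10 and Met.

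The genes of potassium secretion by marginal cells were not called in HET against WT. Slc12a2, the sodium-potassium-chloride cotransporter NKCC1, was the most abundant of the 8, at 82.92, 119.81 and 114.01 FPKM in HET and 123.77, 103.50 and 94.35 in WT. The groups overlapped, with means of 105.6 ± 19.8 in HET and 107.2 ± 15.1 in WT (SD, n = 3 each; -0.03, SE 0.17). Slc12a2 (ENSMUSG00000024597) lies on chromosome 18 from 57878678 to 57946821, 15.5 Mb from Pou4f3 on the same chromosome. Atp1b2, a beta subunit of the sodium pump, was at 50.69, 42.88 and 45.32 FPKM in HET and 53.34, 49.06 and 48.29 in WT, also with overlap (-0.12, SE 0.09). It varied least of the 8, by 1.24-fold over the 6 libraries.

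Kcnq1, the pore subunit of the marginal cell's potassium channel, was the only one of the 8 whose HET and WT libraries did not overlap. It was at 2.42, 2.75 and 2.64 FPKM in HET, each below the 3.88, 3.29 and 2.79 in WT. HET was at 78.4% of the WT mean, a difference of -0.26 (SE 0.12; unadjusted p = 0.0744 and adjusted p = 0.9998 in limma; exact permutation p = 0.1, the smallest that 3 against 3 allow). This pattern, HET libraries all below WT, was found in 3.12% of the genes tested, so 1 of 8 genes is no more than a single instance. HET 2 and WT 3 differed by only 0.04 FPKM, and the 95% counting intervals of those libraries overlapped widely (2.38 to 3.16 and 2.39 to 3.24 FPKM). Kcnq1 (ENSMUSG00000009545) spans chromosome 7 from 143106362 to 143427042 on the + strand and shares 121 exon bases with Kcnq1ot1, an imprinted antisense RNA at 1.69 to 1.87 FPKM in HET and 1.39 to 1.91 in WT. The labels do not say whether counting used strand, so fragments of these bases cannot be told apart.

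Among the genes of intermediate cells other than Dct, HET and WT means were close. Kcnj10, the inward rectifier Kir4.1, which supporting cells and glia also carry, was at 8.76, 11.49 and 11.99 FPKM in HET and 12.37, 10.86 and 8.84 in WT (+0.01, SE 0.16). It lies on chromosome 1 from 172341210 to 172374085 (ENSMUSG00000044708). Met, the receptor of hepatocyte growth factor, was at 8.02, 9.73 and 9.06 FPKM in HET and 9.85, 9.53 and 7.12 in WT (+0.02, SE 0.14). It lies on chromosome 6 from 17463800 to 17573980 (ENSMUSG00000009376). In both genes the lowest libraries were HET 1 and WT 3, and the sign of the difference turned when single libraries were left out.

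Cldn11, the claudin of basal cells, which the myelin of the central nervous system also contains, was at 38.75, 34.04 and 33.43 FPKM in HET and 51.43, 44.02 and 36.41 in WT. The groups overlapped at HET 1 and WT 3. HET was at 80.6% of the WT mean (-0.29, SE 0.14; limma unadjusted p = 0.0715, adjusted p = 0.9998), and the difference was -0.18 without WT 1 and -0.48 without HET 1 and WT 3. Cldn11 (ENSMUSG00000037625) lies on chromosome 3 from 31149920 to 31164324 on the + strand. The 7 brain tissue markers summed to 13.5 to 18.7 FPKM in HET and 14.5 to 17.8 in WT. Gad1 (6.14 to 8.42 FPKM over the 6 libraries) and Aqp4 (5.28 to 9.88) made up most of these sums, whereas Olig1 and Olig2 were below 0.1 FPKM in all 6. The part of brain tissue RNA in the Cldn11 values was not tested.

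Slc26a4, the anion exchanger pendrin of spindle, root and outer sulcus cells, was the only one of the 8 with a higher mean in HET by more than 5%. It was at 4.49, 6.02 and 7.12 FPKM in HET and 5.12, 5.28 and 3.27 in WT, with overlap, and averaged 5.88 ± 1.32 in HET and 4.56 ± 1.12 in WT (SD, n = 3 each). The difference of +0.31 (SE 0.20, limma adjusted p = 0.9998) fell to +0.13 without WT 3. The gene (ENSMUSG00000020651) lies on chromosome 12 from 31519827 to 31559969 on the - strand. Foxi1, the transcription factor that drives Slc26a4 in the endolymphatic sac, was listed at 0 in all 6 libraries, and a count of 0 allows up to 0.0731 to 0.0874 FPKM (3 fragments per library).

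**Figure D3:**
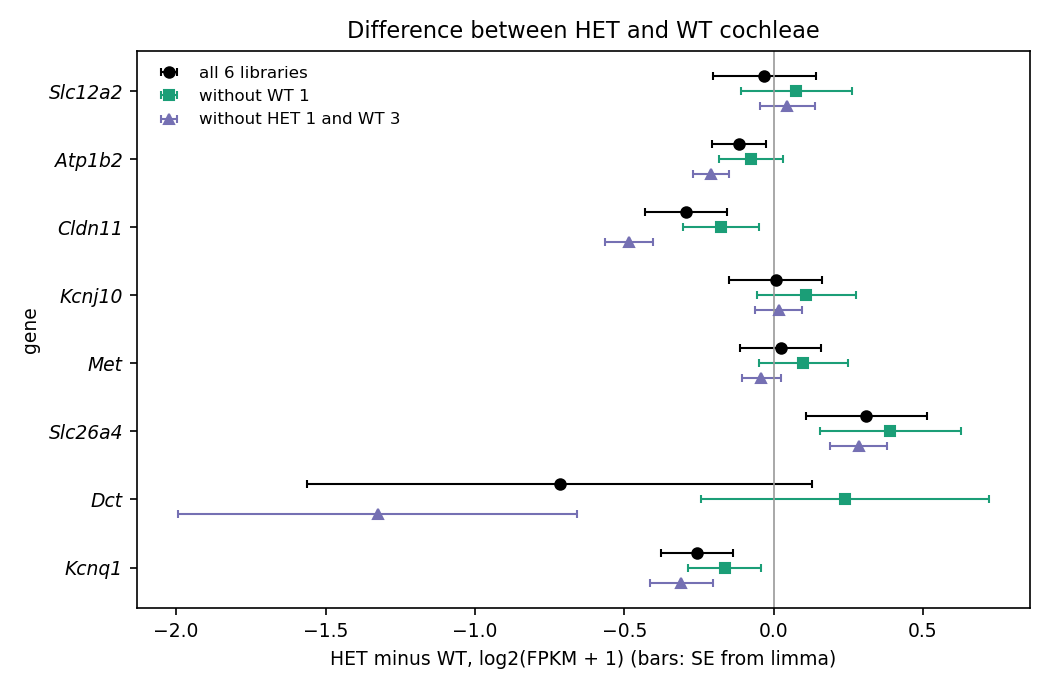
Difference between HET and WT (x axis, log2(FPKM + 1), HET minus WT) for each of the 8 genes (y axis), as limma's estimate ± SE with all 6 libraries, without WT 1, and without HET 1 and WT 3. Dct turns from -0.72 to +0.24 without WT 1, Kcnq1 and Cldn11 stay below 0 and Slc26a4 above 0 in all 3 settings.

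All 8 genes were tested in HET against WT and limma called 0 of them, as it called 0 of 15391 genes (0%). None of the 8 had an unadjusted p under 0.05, which 266 genes had (1.73%). The median difference of the 8 was -0.07, with 3 positive and 5 negative, beside 0.001 over all genes tested, of which 49.6% were negative. Of the 35 other stria genes 22 were tested and 0 called, with 10 positive and 12 negative and a median of -0.01. Positive differences included those of Dpp10 (+0.19) and the endocytic receptor gene Lrp2 (+0.12). Negative ones included those of Sox10 (-0.18) and the endothelin receptor gene Ednrb (-0.18). Dpp10 was higher in each HET library, at 1.61, 1.79 and 1.86 FPKM, than in WT, at 1.57, 1.43 and 1.23, a pattern shown by 2.82% of the genes tested.

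Of the HET and WT libraries, the same ones were lowest in 5 of the 8 genes. In Slc12a2, Kcnj10, Met, Slc26a4 and Dct the lowest libraries were HET 1 and WT 3, which held for 62.5% of the 8 genes and for 25.2% of the genes tested. Slc12a2 and Met belong to the longest quartile of genes, with 10.92 and 7.68 kb of annotated exon, whereas Kcnj10 (5.41 kb), Dct (5.90 kb) and Slc26a4 (3.11 kb) lie in the middle quartiles. Cldn11, with 1.87 kb the shortest, did not show this pattern, nor did Atp1b2 (4.09 kb) and Kcnq1 (4.09 kb). The part of exon length and of glial RNA in these values was not tested.

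The 8 genes spanned a wide range of levels, which FPKM allows to be compared because it is scaled by length. From highest to lowest by the mean of the 6 libraries the order was Slc12a2 (106.4 FPKM), Atp1b2 (48.3), Cldn11 (39.7), Kcnj10 (10.7), Met (8.89), Slc26a4 (5.22), Dct (3.86) and Kcnq1 (2.96). Within each of the 6 libraries this order held from Slc12a2 down to Slc26a4. Across libraries, the ranges of Atp1b2 and Cldn11 overlapped in WT and those of Kcnj10 and Met in both groups. Dct had no fixed rank, since its level ran from 0.32 to 15.12 FPKM.

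For each of the 8 genes the genes of most similar pattern were found by the root mean square (RMS) difference of log2(FPKM + 1), centred on the mean of the 6 HET and WT libraries. The nearest were Antxr1 (RMS 0.016) and Pam (0.024) for Kcnj10, Zfp952 (0.021) and Lrrc8c (0.027) for Met, and Trim12c (0.025) and Zfp11 (0.027) for Atp1b2. Zfp608 and Pard3 (both 0.034) were nearest to Slc12a2, Sp2 (0.049) and Tbc1d7 (0.051) to Kcnq1, Gm13071 (0.064) and Serac1 (0.089) to Slc26a4, and Hist2h3c2 (0.067) and March4 (0.073) to Cldn11. Dct had no close match, with Gm26064 (0.554) and Mir7647 (0.595) the nearest among genes tested. None of these genes is on the stria lists, and the likeness rests on 6 libraries and many candidate genes.

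In HOM, Atp1b2 was slightly lower than in WT, and this difference depended on the scaling. It was at 44.74, 41.99 and 42.47 FPKM in HOM, 50.69, 42.88 and 45.32 in HET and 53.34, 49.06 and 48.29 in WT. The HOM libraries lay below all WT libraries and overlapped those of HET. HOM was at 85.7% of the WT mean (-0.22, SE 0.05, limma adjusted p = 0.0125 over the listed genes), a change close to the median of -0.22 over all 1109 listed genes tested. Of these 93.1% were called, 65.4% as lower, and 69.1% had all HOM libraries below all WT libraries. These shares hold without further scaling: median-ratio scaling called 655 of the 1109 genes (303 lower) and upper-quartile scaling 638 (285 lower). Nothing about Atp1b2 is read from its call. Under median-ratio scaling over the listed genes the difference was -0.008 and under upper-quartile scaling +0.02, and neither was called. Against HET, Atp1b2 was at 93.02% (-0.10, SE 0.07, adjusted p = 0.257), where 44.5% of 1090 listed genes were called (36.3% lower). Both comparisons share the HOM libraries. The gene (ENSMUSG00000041329) lies on chromosome 11 from 69599736 to 69605942 on the - strand.

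**Figure D4:**
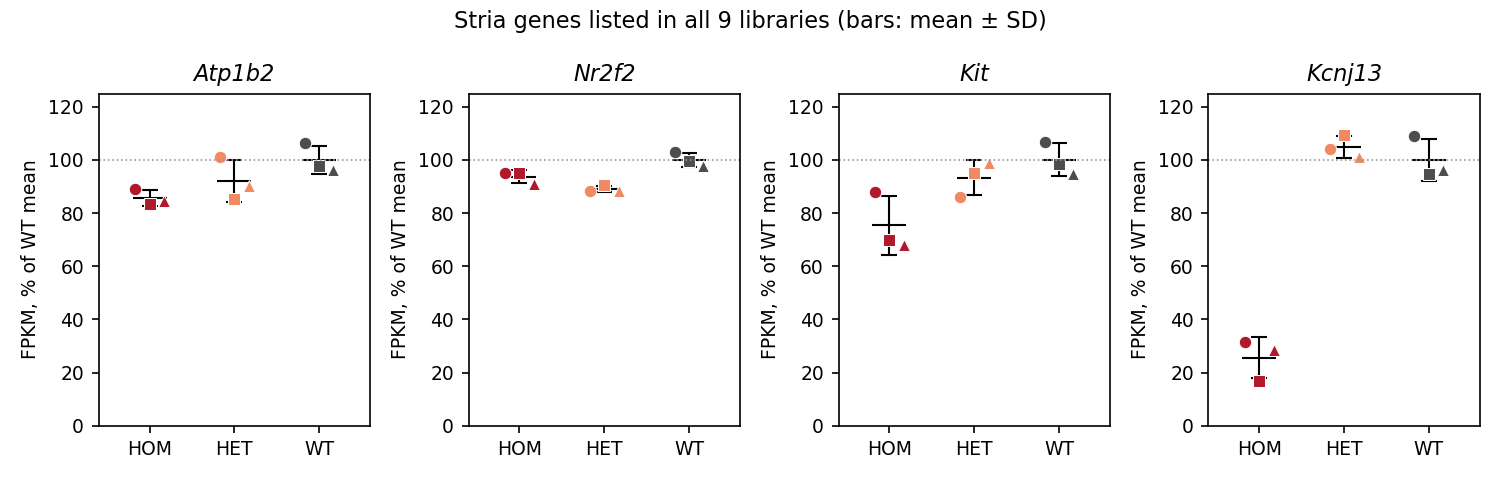
FPKM as a percentage of the WT mean (y axis, from 0) for Atp1b2 and the 3 other stria genes listed in HOM, by group (x axis), with 1 symbol per replicate and the mean ± SD as bars. Kcnj13 averages 25.6% in HOM, and Atp1b2, Nr2f2 and Kit lie between 75.3% and 93.6%.

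Of the 35 other stria genes 3 were listed in HOM, and Kcnj13 had the largest change of the 3. Kcnj13, the inward rectifier Kir7.1, was at 2.97, 1.60 and 2.70 FPKM in HOM, 9.84, 10.36 and 9.57 in HET and 10.32, 8.97 and 9.11 in WT. The HOM libraries lay far below both other groups, a separation that 46.2% of listed genes had against HET, at 25.6% of WT (-1.63, SE 0.16, limma adjusted p = 0.000931) and 24.4% of HET (-1.70, SE 0.16, adjusted p = 0.000807). Kcnj13 stayed called in every alternative, and fell by 1.46 and 1.44 against WT under the median-ratio and upper-quartile scalings. A call against WT sets a listed gene little apart, since 93.1% of those tested had one. The HOM p-values of Kcnj13 and Kit are therefore read as descriptive only. The Kcnj13 change of -1.63 against WT can be set beside the median of -0.22 over the listed genes. Kcnj13 shares 623 exon bases with Gigyf2 on the other strand, whose fragments there cannot be told apart without strand. Hair cell markers differed in the same libraries. Of 8 such markers 7 were listed in HOM, and these summed to 26 to 41.01 FPKM in HOM, 103.1 to 122.7 in HET and 106.4 to 110.3 in WT. Otof, the gene of the hair cell protein otoferlin, was at 0.87, 0.29 and 1.11 FPKM in HOM, against 30.56 to 33.26 in HET and 33.58 to 35.34 in WT. The part of hair cell RNA in the Kcnj13 values was not tested. In tissue RNA, fewer cells of a type and less RNA per cell cannot be told apart.

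Kit, the receptor needed by melanocytes, was at 5.28, 4.20 and 4.08 FPKM in HOM, 5.16, 5.71 and 5.93 in HET and 6.41, 5.91 and 5.68 in WT. It was lower in HOM than in WT (-0.35, SE 0.10, limma adjusted p = 0.0183) but lost the call under both scalings (0.167 and 0.292) and without WT 1 (0.0583). Against HET it was at 80.7% (-0.26, adjusted p = 0.0796), and was called there without HOM 1 (0.0392). Nr2f2, a nuclear receptor gene, was at 18.77, 18.76 and 17.92 FPKM in HOM, 17.46, 17.86 and 17.44 in HET and 20.31, 19.64 and 19.28 in WT. Its level in HOM was below WT (-0.09, adjusted p = 0.0577) and above HET (+0.07, adjusted p = 0.211), neither of them called. The HOM libraries lay above those of HET without overlap, as in 15.7% of listed genes. In HET, Nr2f2 lay below WT in every library (-0.16, limma unadjusted p = 0.0471, adjusted p = 0.9998). Of the genes tested in HET against WT, 3.12% lay below WT in this way and 1.73% had an unadjusted limma p under 0.05.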

How the data were processed

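RNA-seq of cochlear samples was deposited as FPKM per gene and library, calculated by the authors and rounded to 2 decimals, per the file headers. The sample titles do not say which parts of the cochlea were taken. Per the submitters' processing notes, DESeq2 was used and the build was mm8. Aligner, counter and annotation: not given in the sources used here. Gene identifiers were matched to symbols, exon lengths and coordinates in GENCODE M21 on GRCm38. Depth was recovered as the value that made low FPKM in genes of up to 600 bp whole fragments within 0.1 (99.4% to 100% of such values, from 16 to 19 values per HOM library and 1829 or more per HET or WT library). That check is not independent of the choice. Recovered fragments summed to 108% of depth in HET and WT libraries.

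Differences on log2(FPKM + 1) were tested with limma 3.58.1 (R 4.3.3) and a mean-variance trend. A gene entered a test if 3 or more of its 6 libraries reached 1 FPKM. Each fit held 2 groups. Adjusted p values are Benjamini-Hochberg over all genes tested, two-sided, with a threshold of 0.05. In HOM only genes among the 1137 listed could be tested, and 93.1% of those tested were called against WT. The list cannot be taken as chosen without regard to that contrast, so p-values in HOM are descriptive and no independent evidence. Changes are the first group named minus the second. The script was tested on simulated data. Poisson intervals used scipy 1.17.1. Named were the 8 genes, Pou4f3, other stria genes called or with the 3 largest differences each way, and the 2 genes nearest in pattern to each of the 8. Some results under that rule are not reported here. The WT 1 comparison, the length quartiles, the M-box core and the other genes named there were chosen after values were seen. The genes, lists and tests were all chosen with earlier results of these data known.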

Additional observations from a re-analysis of the deposited data

How the results depend on the processing

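In HET against WT 0 genes were called under every alternative except without WT 1 and without WT 2, with 1 gene each, neither of them a stria gene. The range without single libraries was 0 to 1. None of the 8 genes was called in any alternative. Of their 118 alternative values, 10 changed sign, all when libraries were left out. Without single libraries Dct ran from -1.57 to 0.24, and it was positive without WT 1. Slc12a2 ran from -0.13 to 0.13, positive without HET 1 and without WT 1, and was 0.046 without HET 1 and WT 3. Kcnj10 ran from -0.11 to 0.14, negative without HET 2, HET 3 or WT 3. Met ran from -0.11 to 0.10, negative without HET 2 or WT 3, and was -0.041 without HET 1 and WT 3. Lrp2 ran from -0.090 to 0.36, negative without HET 2 or WT 3, and Ednrb from -0.49 to 0.047, positive without HET 3 or WT 3. Dct and Kcnq1 could not be fitted at a minimum of 5 FPKM.

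In HOM against WT 1032 listed genes were called (307 higher, 725 lower), 632 with a minimum of 5 FPKM, 655 under median-ratio scaling (352 higher, 303 lower) and 638 under upper-quartile scaling (353 higher, 285 lower). Leaving out single libraries gave 588 to 864. In HOM against HET the count was 485 (89 higher, 396 lower), 272 with a minimum of 5 FPKM, 304 with a replicate block, and 116 to 431 without single libraries. The median-ratio scaling gave 246 higher and 272 lower there and the upper-quartile scaling 306 and 223. Without further scaling, the median change of listed genes was -0.22 against WT and -0.16 against HET. Atp1b2 changed sign against WT under upper-quartile scaling (0.017) and against HET under median-ratio (0.057) and upper-quartile scaling (+0.14).

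Deviations of same-numbered libraries correlated across genes at -0.52, 0.29 and -0.47 for HET and WT, at -0.32, 0.09 and -0.16 for HOM and HET, and at 0.25, 0.09 and 0.28 for HOM and WT. The last 3 were all positive, 1 of them under 0.1, and differently numbered HOM and WT libraries correlated at -0.29 to 0.10. The labels tie no numbers to shared animals or days, so the numbers were not taken as pairs. A fit with the replicate block called 0 genes in HET against WT and 909 in HOM against WT.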

Other observations

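Of protein-coding genes at 0.5 FPKM or more in 1 library and at least 3-fold above each of the other 5, there were 12 in WT 1 and between 1 and 4 in each other library. The 12 included Dct, Kcne1, Esrrb, Bsnd, Tyr, Gpnmb and Slc45a2, which are 7 genes of the lists described above. The others were Hpse, which encodes heparanase, at 1.69 FPKM in WT 1 and at most 0.49 elsewhere, the histone gene Hist1h1e (0.63 and 0.15), and Gm11096, 4930535I16Rik and Gm21953. These genes and the thresholds were picked after their values were seen.

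The 8 fibrocyte and otic mesenchyme markers did not share 1 order of libraries. The transcription factor gene Tbx15 was at 0.45 FPKM in WT 1 and at 0.10 to 0.18 in the other 5 libraries. Car3, a carbonic anhydrase gene, was also highest in WT 1, at 85.96 FPKM against 45.15 to 75.15. Pou3f4, a transcription factor of otic mesenchyme, was at 53.07, 74.31 and 75.52 FPKM in HET and 86.14, 75.62 and 61.97 in WT, highest in WT 1 by a small margin. Coch, the cochlin gene, was lowest in WT 1, at 24.73 FPKM against 27.83 to 40.04. Otos, a fibrocyte gene of the spiral ligament, was also lowest in WT 1, at 31.85 FPKM, against 35.28 and 48.67 in the other WT libraries and 42.22 to 43.12 in HET. Among the HET and WT libraries, Tbx18, Gjb2 and Gjb6 were highest in WT 1 by small margins. Gjb2 and Gjb6 were also listed in HOM, where every library was above WT 1. Gjb2 was at 189.15 to 217.36 FPKM in HOM and 180.65 in WT 1, and Gjb6 at 42.94 to 49.38 and 41.04. The genes named here were picked after their values were seen. The 8 summed markers ran from 437 to 470 FPKM in HET and from 429 to 510 in WT, with the highest sum in WT 1. Markers of skeletal muscle summed to at most 1.20 FPKM in any HET or WT library.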
